A study of Homo sapiens with 18 samples.

Results

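The 4 subunits of DNA polymerase alpha-primase, POLA1, POLA2, PRIM1 and PRIM2, were followed in HEK293T cells in which base editors directed at NRF1 exon 7 had been expressed. The members were the 4 genes among 58870 in the count table that carry these symbols. POLA2 was selected on its log2 fold change between NRF1 and intergenic guides in these same data, so its change is given as a description with no test, and the other 3 were included as its partners in the complex. HEK293T is a human embryonic kidney cell line. All groups received a plasmid that carried a base editor and a guide RNA, and puromycin. In each case 750000 cells were transfected, selection lasted 48 hours and polyadenylated RNA was taken 72 hours after transfection. A base editor is a deaminase fused to a Cas9 nickase and converts single bases where its guide directs it. The adenine editor ABE8e was used with the nickase of Staphylococcus aureus (SaABE) or of Streptococcus pyogenes (SpABE), and the cytosine editor evoCDA1 with the S. pyogenes nickase (SpCBE). Each editor was paired with a guide to a splice site of NRF1 exon 7, so as to promote skipping of the exon, or with an intergenic guide, with 3 libraries in each of the 6 groups. The cells were transiently transfected populations and the labels name no cloning step, so edited and unedited cells may both be present.

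DNA polymerase alpha-primase starts every new DNA strand at the replication fork. The primase lays down a short RNA primer, the polymerase extends it with a stretch of DNA, and the more processive replicative polymerases then take over. PRIM1 is the catalytic subunit of the primase and PRIM2 the large primase subunit, which holds an iron-sulfur cluster. POLA1 is the catalytic subunit of the polymerase and POLA2 its B subunit, which has no catalytic activity of its own and joins the complex to other fork proteins. NRF1, the targeted gene, encodes a transcription factor that binds a GC-rich palindromic element in many promoters of housekeeping genes.

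The promoters of the 4 genes are shown because they differed in how many copies of the NRF1 motif core they held. Each sequence is the 250 bases before the RefSeq start site on GRCh38.p14, read 5′ to 3′ on the strand of the gene. Capitals mark the NRF1 core, CGCATGCG or CGCACGCG, or the shorter NRF1 element TGCGCA, each searched on both strands. The POLA2 promoter lies at chr11:65261712-65261961 on the plus strand, the POLA1 promoter at chrX:24693668-24693917 on the plus strand, the PRIM1 promoter at chr12:56752324-56752573 on the minus strand and the PRIM2 promoter at chr6:57317380-57317629 on the plus strand.
POLA2: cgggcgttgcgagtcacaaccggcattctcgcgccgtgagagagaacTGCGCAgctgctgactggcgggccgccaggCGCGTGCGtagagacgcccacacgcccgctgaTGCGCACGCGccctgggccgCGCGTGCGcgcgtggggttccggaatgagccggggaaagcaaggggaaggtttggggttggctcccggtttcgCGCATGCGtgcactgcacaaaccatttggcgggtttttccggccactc
POLA1: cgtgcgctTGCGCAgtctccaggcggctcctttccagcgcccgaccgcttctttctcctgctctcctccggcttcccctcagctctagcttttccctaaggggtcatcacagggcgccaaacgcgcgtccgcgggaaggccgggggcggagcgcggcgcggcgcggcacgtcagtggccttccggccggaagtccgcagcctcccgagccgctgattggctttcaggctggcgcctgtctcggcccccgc
PRIM1: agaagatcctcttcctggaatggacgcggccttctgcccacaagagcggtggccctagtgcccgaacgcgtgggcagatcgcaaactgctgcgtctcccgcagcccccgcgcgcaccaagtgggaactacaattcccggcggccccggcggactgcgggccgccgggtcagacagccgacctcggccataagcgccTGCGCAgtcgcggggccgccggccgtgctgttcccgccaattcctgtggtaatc
PRIM2: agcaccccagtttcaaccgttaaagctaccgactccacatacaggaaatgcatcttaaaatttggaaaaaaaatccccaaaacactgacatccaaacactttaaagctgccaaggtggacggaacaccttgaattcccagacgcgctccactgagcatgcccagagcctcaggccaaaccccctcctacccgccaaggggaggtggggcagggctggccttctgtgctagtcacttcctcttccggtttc

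The POLA2 promoter held 4 NRF1 cores, at -173 to -166, -139 to -132, -121 to -114 and -48 to -41 from the start site. The other 3 promoters held 0. Over the window from 250 bases before to 50 after the start site, 4.65% of 35116 RefSeq promoters held at least 1 core and 5 promoters, POLA2 included, held at least 4. Of the 4 cores in POLA2, 2 were flanked by G before and C after, a form found in 2.77% of promoters. The shorter element occurred at 2 places in POLA2, 1 of which overlapped the core at -139, and once each in POLA1 and PRIM1, against 8.24% of all promoters with at least 1. For E2F, the factors that drive S phase genes, only the letters TTTCGCGC and TTTGGCGC were searched. Other forms of the E2F element were not counted. The searched letters were found once in POLA2, at -53 to -46, where they overlapped the last NRF1 core. They were found once in POLA1, at -137 to -130, against 1.15% of promoters with a match. A CCAAT box (CCAAT, 34.61% of promoters) was found in POLA1 and PRIM1, and a GC box (GGGCGG, 44.95%) in POLA1. The PRIM2 window held none of these letters. RefSeq lists a further PRIM2 start site upstream, at chromosome 6 position 57314805, whose window held none either. The GC share of the 300-base window was 66.0% for POLA2, 69.3% for POLA1, 67.3% for PRIM1 and 53.0% for PRIM2, beside a median of 58.7% over all promoters. A match of letters does not show that a factor binds there, and no binding was measured in these libraries.

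**Figure D1:**
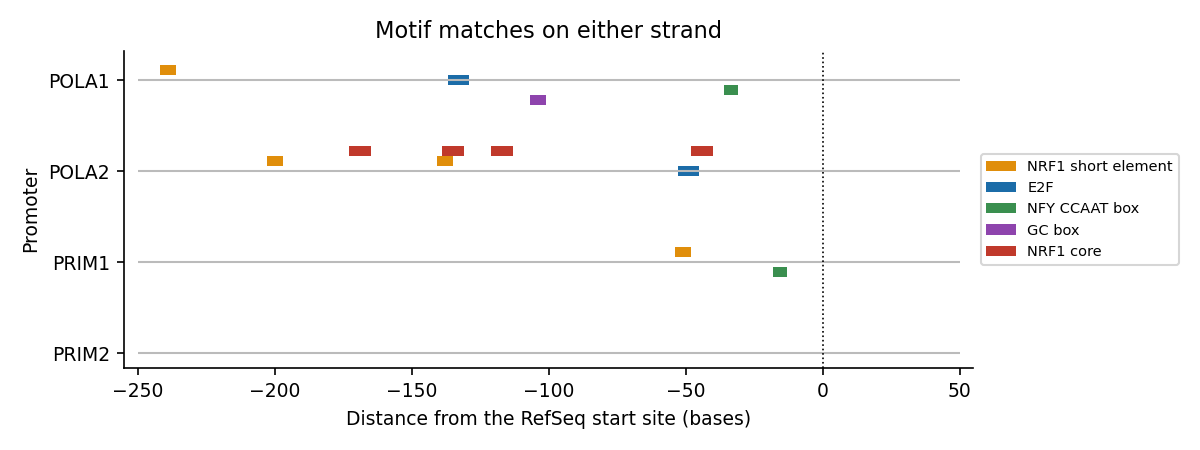
Motif matches on either strand in the promoters of POLA1, POLA2, PRIM1 and PRIM2, plotted by distance in bases from the RefSeq start site (dotted line), with 1 colour per motif. The 4 NRF1 cores lie in the POLA2 row alone, and the PRIM2 row is empty.

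The libraries held 28101094 to 40687447 estimated counts. Levels are given as CPM, the count relative to a library total that was scaled by TMM, the trimmed mean of log ratios between libraries. NRF1 itself was at 24.4 to 33.1 CPM in the 9 intergenic-guide libraries and at 35.7 to 43.8 CPM in the 9 NRF1-guide libraries, with no overlap. Its transcript level was thus higher with the NRF1 guides, by 0.49 on the log2 scale (SE 0.0449, edgeR adjusted p = 3.61e-09). Counts per gene do not show whether exon 7 was skipped. Kidney-lineage genes of HEK cells were present (4 of 4 at a mean of at least 1 CPM, summed level 56.9 to 74.5 CPM with intergenic and 58.4 to 66.3 CPM with NRF1 guides). Of 6 blood markers 2 reached 1 CPM, with sums of 2.0 to 3.2 and 2.14 to 3.91 CPM, and PTPRC, CD3E, LYZ and HBB were below 1 CPM in every library. Of 6 fibroblast markers 2 reached 1 CPM, with sums of 19.2 to 25.2 and 15.1 to 23.1 CPM, and of 6 epithelial markers 4 did, with sums of 94.6 to 108 and 93.2 to 106 CPM. COL1A2, DCN, LUM and PDGFRB among the fibroblast markers, and KRT19 and KRT5 among the epithelial ones, were below 1 CPM in every library.

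POLA2 (ENSG00000014138, chromosome 11, 65261913 to 65305959, plus strand of hg38) was lower with the NRF1 guide in all 3 editors, by more than any of its partners. In SaABE it was at 69.7, 67.2 and 68.3 CPM in the intergenic-guide libraries and at 17.0, 18.6 and 18.8 CPM in the NRF1-guide libraries. In SpABE it was at 64.6, 72.9 and 72.7 CPM against 23.4, 18.4 and 21.3 CPM. In SpCBE it was at 81.6, 89.1 and 83.7 CPM against 34.3, 37.5 and 34.6 CPM. The guides did not overlap in any of the 18 libraries, since the highest value with an NRF1 guide, 37.5 CPM in SpCBE, was under the lowest with an intergenic guide, 64.6 CPM in SpABE. Over the 3 editors the difference was -1.61 on the log2 scale (SE 0.0688), or 3.05-fold lower. It was -1.91 (SE 0.0664, 3.77-fold lower) in SaABE, -1.74 (SE 0.062, 3.33-fold lower) in SpABE and -1.26 (SE 0.0571, 2.40-fold lower) in SpCBE. These values chose the gene. Of 17743 genes tested, 4.37% were lower at an adjusted p under 0.05 and by over 0.5 on the log2 scale in the comparison over 3 editors. In bulk RNA a lower level in every cell and a loss in a fraction of the cells cannot be told apart.

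**Figure D2:**
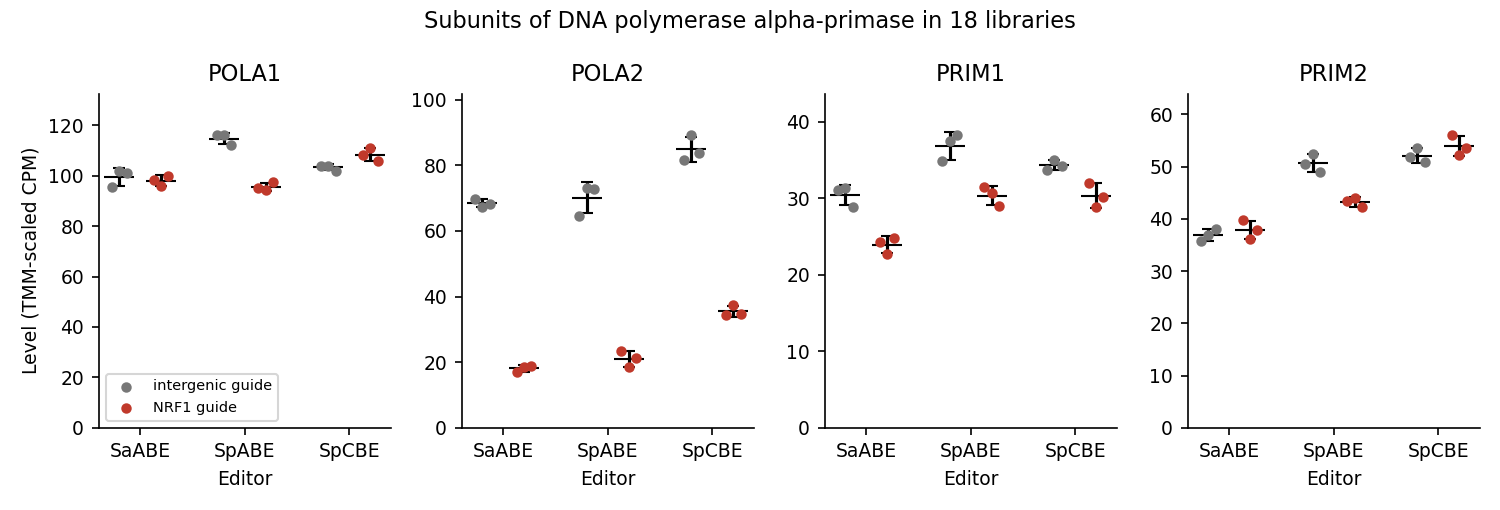
Level of each subunit in TMM-scaled CPM (vertical axes, which start at 0 and differ between panels) in the 3 editors (grey for the intergenic and red for the NRF1 guide, 1 point per library), with lines for the means and bars for ± 1 SD of 3 libraries. POLA2 falls from 64.6 to 89.1 CPM with intergenic guides to 17.0 to 37.5 CPM with NRF1 guides, while the groups of POLA1 and PRIM2 separate downward in SpABE alone.

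The count of POLA2 shares bases with another annotated gene. AP000944.2 (ENSG00000285816, chromosome 11, 65261928 to 65326543, plus strand) is a read-through model that starts 15 bases from POLA2 and runs on into CDC42EP2, a gene for an effector of the small GTPase CDC42. It shares 2012 exon bases with POLA2, which are 47.3% of its own length. The estimated counts of POLA2 and of PRIM1 were not whole in any of the 18 libraries, and those of PRIM2 in 15 of them, but how reads were assigned to genes is not given in the sources used. AP000944.2 was at 18.1 to 28.4 CPM with intergenic guides and at 13.1 to 20.1 CPM with NRF1 guides, ranges that overlapped. AP000944.2 fell by 0.54 on the log2 scale (SE 0.0742, edgeR adjusted p = 2.53e-06). As the genes share bases and POLA2 was chosen for its fall, that test is not independent of the choice. The share of AP000944.2 in the sum of both genes was 23.99%, 27.05% and 23.21% in the intergenic groups of SaABE, SpABE and SpCBE. In their NRF1 groups it was 46.57%, 43.91% and 33.70% (group means). With both genes summed, a choice made after seeing the data, the difference was -1.26 over the 3 editors (SE 0.0413), -1.41 in SaABE, -1.35 in SpABE and -1.04 in SpCBE. The fall was thus smaller on the summed counts in every editor but kept its direction and the order of the editors. CDC42EP2 alone, at a mean of 6.16 CPM with intergenic and 7.48 CPM with NRF1 guides, rose by 0.30 on the log2 scale over the 3 editors (SE 0.0865, edgeR adjusted p = 0.00699). It was at 0.07 in SaABE (edgeR adjusted p = 0.724), 0.42 in SpABE (edgeR adjusted p = 0.0181) and 0.43 in SpCBE (edgeR adjusted p = 0.0336).

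Among the partners, PRIM1 (ENSG00000198056, chromosome 12, 56730438 to 56752374, minus strand) fell by a smaller amount with each editor. In SaABE it was at 31.0, 31.3 and 28.9 CPM with the intergenic guide and at 24.3, 22.7 and 24.8 CPM with the NRF1 guide. In SpABE it was at 34.8, 37.4 and 38.2 CPM against 31.4, 30.6 and 29.0 CPM. In SpCBE it was at 33.7, 35.0 and 34.2 CPM against 32.0, 28.8 and 30.1 CPM. Within each editor the 3 NRF1-guide libraries lay below the 3 intergenic-guide libraries. Over all editors only 4 of 9 were under the lowest intergenic value, 28.9 CPM in SaABE. The share of all genes whose guides lay apart in this way was not counted, for PRIM1, the other subunits or NRF1. Over the 3 editors PRIM1 fell by 0.26 on the log2 scale (SE 0.0322, 1.20-fold lower, edgeR adjusted p = 4.03e-07). It fell by 0.34 in SaABE (SE 0.0524, edgeR adjusted p = 1.49e-05), by 0.28 in SpABE (SE 0.0476, edgeR adjusted p = 5.43e-05) and by 0.18 in SpCBE (SE 0.0479, edgeR adjusted p = 0.00778). Without replicate 2 of the NRF1 guide in SpCBE, the SpCBE value was -0.14 (edgeR adjusted p = 0.0674). None of these values reached 0.5 on the log2 scale.

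POLA1 (ENSG00000101868, chromosome X, 24693873 to 24996986, plus strand), the catalytic subunit that POLA2 accompanies, was lower with the NRF1 guide in SpABE. There it was at 116, 116 and 112 CPM with the intergenic guide and at 95.0, 94.2 and 97.3 CPM with the NRF1 guide, a fall of 0.26 on the log2 scale (SE 0.0303, 1.20-fold lower, edgeR adjusted p = 1.93e-07). In SaABE it was at 95.3, 102 and 101 CPM against 98.3, 95.7 and 100 CPM, with a difference of -0.02 (95% interval -0.08 to 0.04, edgeR adjusted p = 0.7). In SpCBE it was at 104, 104 and 102 CPM against 108, 111 and 106 CPM, with a difference of 0.06 (95% interval 0.00 to 0.12, edgeR adjusted p = 0.147). The groups overlapped in SaABE, and in SpCBE the NRF1-guide libraries were the higher ones. Over the 3 editors the difference was -0.07 (SE 0.0347, edgeR adjusted p = 0.0938). It passed the test at -0.09 without replicate 2 of the NRF1 guide in SpCBE (edgeR adjusted p = 0.0455), at -0.10 when libraries were scaled by their totals alone (edgeR adjusted p = 0.0283) and at -0.07 with no filter on low counts (edgeR adjusted p = 0.0224). POLA1 counts were whole in every library.

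PRIM2 (ENSG00000146143, chromosome 6, 57314805 to 57646850, plus strand) followed the pattern of POLA1. In SpABE it was at 50.6, 52.5 and 49.0 CPM with the intergenic guide and at 43.5, 44.0 and 42.2 CPM with the NRF1 guide, a fall of 0.23 on the log2 scale (SE 0.0399, 1.17-fold lower, edgeR adjusted p = 6.56e-05). In SaABE it was at 35.7, 36.9 and 38.1 CPM against 39.7, 36.2 and 37.8 CPM, with a difference of 0.04 (95% interval -0.05 to 0.13, edgeR adjusted p = 0.531). In SpCBE it was at 51.8, 53.6 and 50.9 CPM against 56.0, 52.2 and 53.5 CPM, with a difference of 0.05 (95% interval -0.03 to 0.13, edgeR adjusted p = 0.414). The NRF1-guide libraries lay below the intergenic-guide libraries in SpABE and overlapped them in the other editors. Over the 3 editors the difference was -0.05 (SE 0.0365, edgeR adjusted p = 0.311).

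Of the 3 partners, 1 therefore passed the test downward over the 3 editors, where 18.8% of all genes tested were lower and 20.6% higher at an adjusted p under 0.05. In SaABE and in SpCBE 1 of 3 passed downward, PRIM1, against 15.5% and 12% of all genes. In SpABE 3 of 3 did, against 17.3% of all genes. Small differences pass in these libraries for many genes, and a count of 1 of 3 is not set apart from that background.

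**Figure D3:**
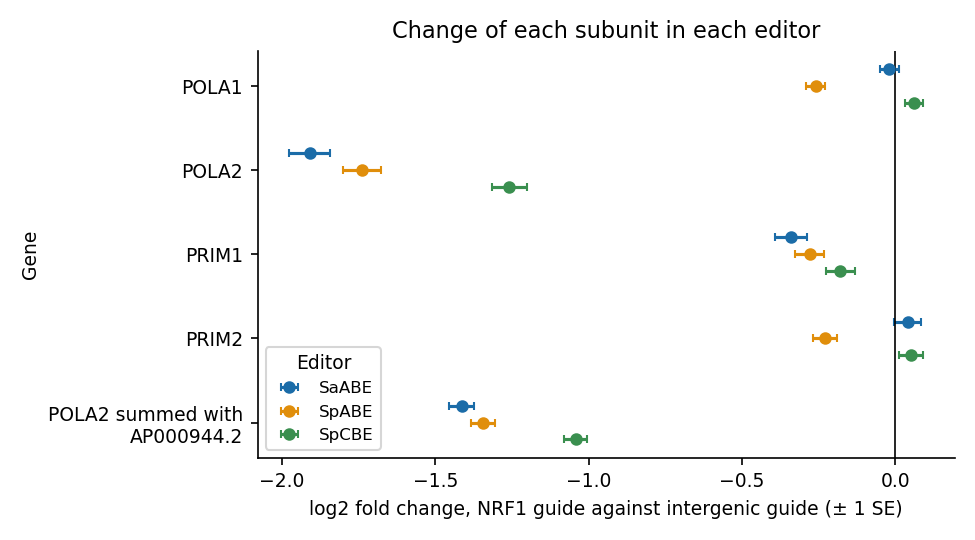
Log2 fold change of NRF1 against intergenic guide (horizontal axis, bars ± 1 SE) for each subunit in SaABE, SpABE and SpCBE, with POLA2 also summed with AP000944.2. POLA2 lies between -1.91 and -1.26 and between -1.41 and -1.04 once summed, and the other subunits lie between -0.34 and 0.06.

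The size of the effect differed between editors for 2 of the 3 partners, POLA1 and PRIM2, as judged by tests of the difference itself. Each such comparison uses all 4 groups of its editors. Every editor came on its own plasmids with its own guides. The editor therefore cannot be told apart from guide sequence, target site or amount of exon skipping. For POLA2 the differences are built from the values that chose the gene and are given with no test. Its log2 change in SaABE was below that in SpCBE by 0.65 (SE 0.0891), its change in SpABE was below that in SpCBE by 0.48 (SE 0.0852), and between SaABE and SpABE the difference was -0.18 (SE 0.0931). With AP000944.2 summed in, these were -0.37, -0.30 and -0.07. For POLA1 the change in SaABE was above that in SpABE by 0.25 (SE 0.0437, edgeR adjusted p = 0.000576), and the change in SpABE was below that in SpCBE by 0.33 (SE 0.0428, edgeR adjusted p = 1.92e-05). PRIM2 gave nearly the same values as POLA1, 0.27 (SE 0.0592, edgeR adjusted p = 0.00377) and -0.28 (SE 0.0558, edgeR adjusted p = 0.00197). Between SaABE and SpCBE the differences were -0.08 for POLA1 (95% interval -0.17 to 0.00, edgeR adjusted p = 0.332) and -0.01 for PRIM2 (95% interval -0.12 to 0.11, edgeR adjusted p = 0.963). For PRIM1 they were -0.06, -0.17 and -0.10, with edgeR adjusted p of 0.637, 0.209 and 0.418 and the widest bound at -0.30. Among all genes tested, 6.37% had a higher change in SaABE than in SpABE, 2.07% a lower change in SaABE than in SpCBE and 4.42% a lower change in SpABE than in SpCBE. Of the 3 partners, 2, 0 and 2 passed in these directions.

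The subunits also differed between the intergenic-guide groups, in which NRF1 was not targeted. PRIM2 was lower in SaABE than in SpABE by 0.46 on the log2 scale (SE 0.0415, edgeR adjusted p = 5.19e-09) and lower than in SpCBE by 0.50 (SE 0.0414, edgeR adjusted p = 9.13e-10). These exceed every difference that PRIM2 showed between guides. PRIM1 was lower in SaABE than in SpABE by 0.28 (SE 0.0486, edgeR adjusted p = 7.25e-05) and than in SpCBE by 0.17 (SE 0.0489, edgeR adjusted p = 0.00601). POLA1 was lower in SaABE than in SpABE by 0.21 (SE 0.0306, edgeR adjusted p = 7.72e-06) and higher in SpABE than in SpCBE by 0.15 (SE 0.0301, edgeR adjusted p = 0.000414), so its fall in SpABE started from the highest of the control levels. POLA2 was lower in SaABE and SpABE than in SpCBE, by 0.31 (SE 0.0541, edgeR adjusted p = 5.67e-05) and 0.28 (SE 0.0532, edgeR adjusted p = 0.000259). In SaABE against SpABE 3 of 4 subunits were lower, against 19.1% of all genes, and in SaABE against SpCBE 3 of 4, against 20.6%. In SpABE against SpCBE 1 of 4 was lower and 1 of 4 higher, against 17.8% and 17.7%. The remaining differences, -0.04 for POLA2 between SaABE and SpABE, -0.06 for POLA1 between SaABE and SpCBE, and 0.10 for PRIM1 and -0.04 for PRIM2 between SpABE and SpCBE, had edgeR adjusted p of 0.647, 0.134, 0.0969 and 0.463. The editor comparisons share control groups with each other and with the effect differences above. Here too the editor cannot be told apart from its plasmid and guide.

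In order of group means, POLA2 was highest in the SpCBE intergenic group (84.8 ± 3.84 CPM, SD, n = 3), followed by SpABE intergenic (70.1 ± 4.71), SaABE intergenic (68.4 ± 1.26), SpCBE NRF1 (35.4 ± 1.79), SpABE NRF1 (21.0 ± 2.52) and SaABE NRF1 (18.1 ± 0.971). Neighbours in that order overlapped between SpABE and SaABE, within each guide, and nowhere else. PRIM1 ran from 36.8 ± 1.75 CPM in SpABE intergenic to 23.9 ± 1.10 CPM in SaABE NRF1 (SD, n = 3 each). Its lowest group was set apart from the others, and SaABE intergenic, SpABE NRF1 and SpCBE NRF1 lay together at 30.4, 30.4 and 30.3 CPM. POLA1 ran from 115 ± 2.75 CPM in SpABE intergenic to 95.5 ± 1.59 CPM in SpABE NRF1 (SD, n = 3 each), so both ends of its order belonged to 1 editor. PRIM2 was ordered by editor rather than by guide, from 53.9 ± 1.90 CPM in SpCBE NRF1 to 36.9 ± 1.22 CPM in SaABE intergenic (SD, n = 3 each).

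Ratios between subunits within a library show how their transcripts stood to each other, and need a level per length. On CPM per kilobase of the union of annotated exons, the ratio of POLA2 to POLA1 was 0.892 ± 0.0483, 0.792 ± 0.0641 and 1.06 ± 0.0429 in the intergenic groups of SaABE, SpABE and SpCBE and 0.240 ± 0.014, 0.285 ± 0.0332 and 0.424 ± 0.0135 in their NRF1 groups (SD, n = 3 each). The lowest intergenic-guide library (0.720) was above the highest NRF1-guide library (0.438). Each editor had its lower ratio with the NRF1 guide, which follows from the choice of POLA2 for its fall, since POLA1 changed far less. The ratio of PRIM1 to PRIM2, the primase pair, was 1.41 ± 0.0992, 1.24 ± 0.0812 and 1.12 ± 0.020 in the intergenic groups and 1.08 ± 0.0387, 1.20 ± 0.031 and 0.959 ± 0.0162 in the NRF1 groups (SD, n = 3 each). These overlapped between guides in SpABE, where both primase genes fell, and were apart in SaABE and SpCBE. The ratio of PRIM2 to POLA1 differed little between guides, at 1.02 against 1.06 in SaABE, 1.21 against 1.25 in SpABE and 1.38 against 1.37 in SpCBE.

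The order of the 4 levels depended on the length used. With exon unions of 15547 bases for POLA1, 12006 for POLA2, 3309 for PRIM1 and 5652 for PRIM2, the mean over the 9 intergenic-guide libraries was 6.81 ± 0.468, 6.20 ± 0.701, 10.2 ± 0.910 and 8.24 ± 1.31 CPM per kilobase (SD, n = 9). With the MANE Select transcripts, of 5487, 3544, 1423 and 2303 bases, a length chosen after seeing the data, the means were 19.3 ± 1.33, 21.0 ± 2.37, 23.8 ± 2.12 and 20.2 ± 3.21 CPM per kilobase (SD, n = 9). With the longest annotated transcripts, of 5765, 3870, 1875 and 2561 bases, the level was 19.2 ± 2.17 CPM per kilobase for POLA2, 18.4 ± 1.26 for POLA1 and 18.2 ± 2.89 for PRIM2 (SD, n = 9), with PRIM1 slightly below PRIM2. PRIM1 was thus highest by the exon unions and the MANE transcripts and lowest by the longest transcripts, and POLA2 was lowest by the exon unions and highest by the longest transcripts, so no order of the 4 levels can be given. The ratio of POLA2 to POLA1 was 1.09 with intergenic and 0.378 with NRF1 guides by the MANE transcripts, and 1.05 and 0.364 by the longest ones.

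**Figure D4:**
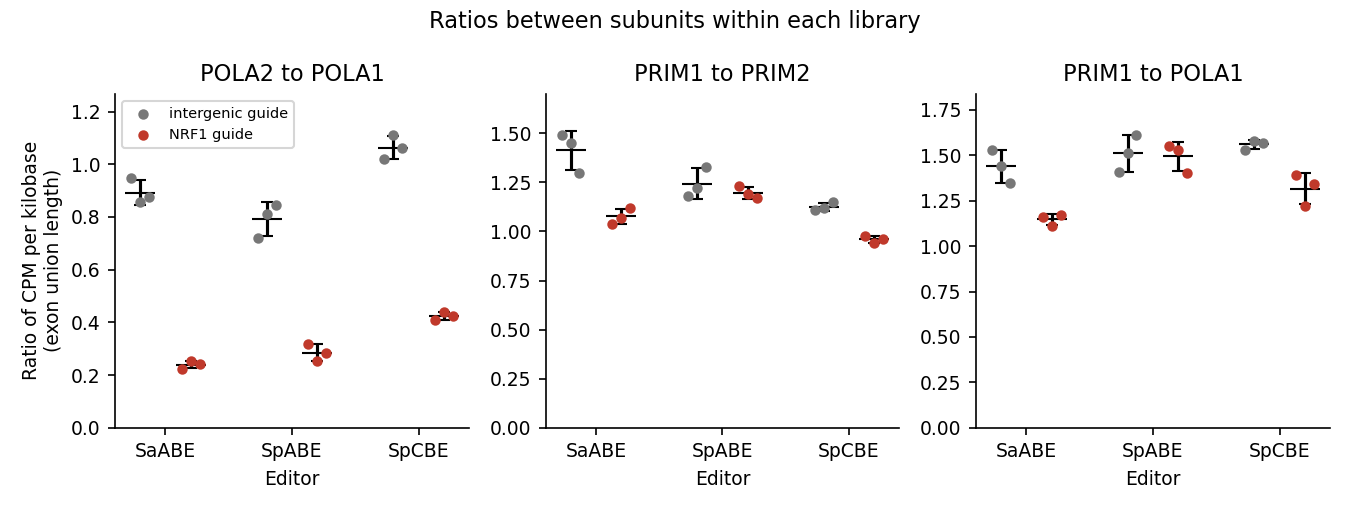
Ratio of CPM per kilobase of exon union (vertical axes, from 0) between pairs of subunits in each library, by editor (grey for the intergenic and red for the NRF1 guide), with lines for means and bars for ± 1 SD of 3 libraries. The POLA2 to POLA1 ratio is 0.720 to 1.11 with intergenic guides and 0.224 to 0.438 with NRF1 guides, and POLA2 was chosen for its fall.

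Genes next to or overlapping the primase subunits were examined in the same way. HSD17B6, a hydroxysteroid dehydrogenase gene whose start lies 213 bases from that of PRIM1 on the opposite strand, was at 6.18 ± 1.02 CPM with intergenic and 6.73 ± 0.992 CPM with NRF1 guides (SD, n = 9), a difference of 0.12 (SE 0.0587, edgeR adjusted p = 0.0997). AC117378.1, a model that spans PRIM1 and its neighbour NACA and shares 362 exon bases with PRIM1, was at 1.61 to 4.65 CPM over all libraries, with a difference of 0.04 (SE 0.148, edgeR adjusted p = 0.861). Summed with it, PRIM1 kept its direction and its side of the adjusted p threshold in every comparison. PRIM1 was then at -0.234 over the 3 editors, -0.355 in SaABE, -0.211 in SpABE and -0.148 in SpCBE (edgeR adjusted p = 7.17e-06, 1.2e-05, 0.00139 and 0.0295). AC244258.1, an unprocessed pseudogene copy of PRIM2, had estimated counts of 0 to 4.3 and was too low to be tested.

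Other genes of DNA replication were described by lists, each read beside the table as a whole, in which the median log2 change over the 3 editors was 0.01 and 18.8% of genes passed as lower and 20.6% as higher. Of all 92 listed genes 18 passed as lower and 25 as higher, which is not set apart from those shares. Of 8 subunits of the replicative polymerases delta and epsilon, 1 rose and 2 fell. POLD1, the catalytic subunit of polymerase delta, fell by 0.61 on the log2 scale (SE 0.0464, edgeR adjusted p = 1.18e-10), POLE4, a small subunit of polymerase epsilon, fell by 0.32 (SE 0.0298, edgeR adjusted p = 3.82e-09), and its partner POLE3 rose by 0.06 (SE 0.0185, edgeR adjusted p = 0.0125). The replicative helicase had 2 of 11 genes higher and 1 lower, with GINS1 at 0.13, MCM7 at 0.05 and MCM5 at -0.16 (edgeR adjusted p = 0.000136, 0.0255 and 0.022). Origin licensing and firing had 4 of 17 higher and 1 lower. The latter was CDC7, the kinase that activates loaded helicases, at -1.02 (SE 0.0266, edgeR adjusted p = 1.62e-19), while the origin recognition subunits ORC5 and ORC4 were at 0.23 and 0.12 (edgeR adjusted p = 7.44e-07 and 0.000209).

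Of the 4 genes that couple polymerase and helicase at the fork, 2 fell and 1 rose. WDHD1, the human AND-1 protein that tethers polymerase alpha to the helicase, fell by 0.36 (SE 0.0321, edgeR adjusted p = 2.46e-09) and TIMELESS, of the fork protection complex, by 0.21 (SE 0.0222, edgeR adjusted p = 4.81e-08), while the checkpoint mediator CLSPN rose by 0.11 (SE 0.031, edgeR adjusted p = 0.00807). Among 15 genes of the sliding clamp, its loader, RPA and primer removal, 8 rose and 1 fell. The one that fell was DNA2, a nuclease and helicase that trims flaps on Okazaki fragments, at -1.50 (SE 0.0393, edgeR adjusted p = 1.58e-19), and the smallest p among those that rose belonged to RPA3 at 0.27 and RNASEH2A at 0.22 (edgeR adjusted p = 1.23e-09 and 1.42e-07). The CST complex, which works with polymerase alpha at telomere ends, had TEN1 higher by 0.24 and STN1 lower, at -0.16, of 3 genes (edgeR adjusted p = 0.00111 and 0.0103).

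Of 14 genes for other DNA polymerases and PRIMPOL, 3 rose and 4 fell. POLN fell by 0.63, the translesion polymerase POLH by 0.32 and REV1, a scaffold of translesion synthesis, by 0.20 (edgeR adjusted p = 9.45e-06, 5.38e-08 and 2.23e-05). Of 20 S phase genes outside the fork, 5 rose and 6 fell, among them UHRF1, which binds hemimethylated DNA, at -0.44, TYMS, the thymidylate synthase gene, at -0.20 and the histone chaperone gene ASF1B at 0.19 (edgeR adjusted p = 1.19e-10, 1.72e-09 and 9.63e-08). Of the 92 genes on these lists, 4 fell by over 0.5 on the log2 scale over the 3 editors, POLD1, CDC7, DNA2 and POLN, and none rose by as much. A share of 4 of 92 is close to the 4.37% of all genes tested that fell by as much. POLA2, at -1.61, was below all 92 of them over the 3 editors. It was chosen for its fall in these data, so this rank follows in part from the choice. In SpCBE, at -1.26, POLA2 was above DNA2, at -1.44. Over the 3 editors it was above DNA2 once AP000944.2 was summed in.

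**Figure D5:**
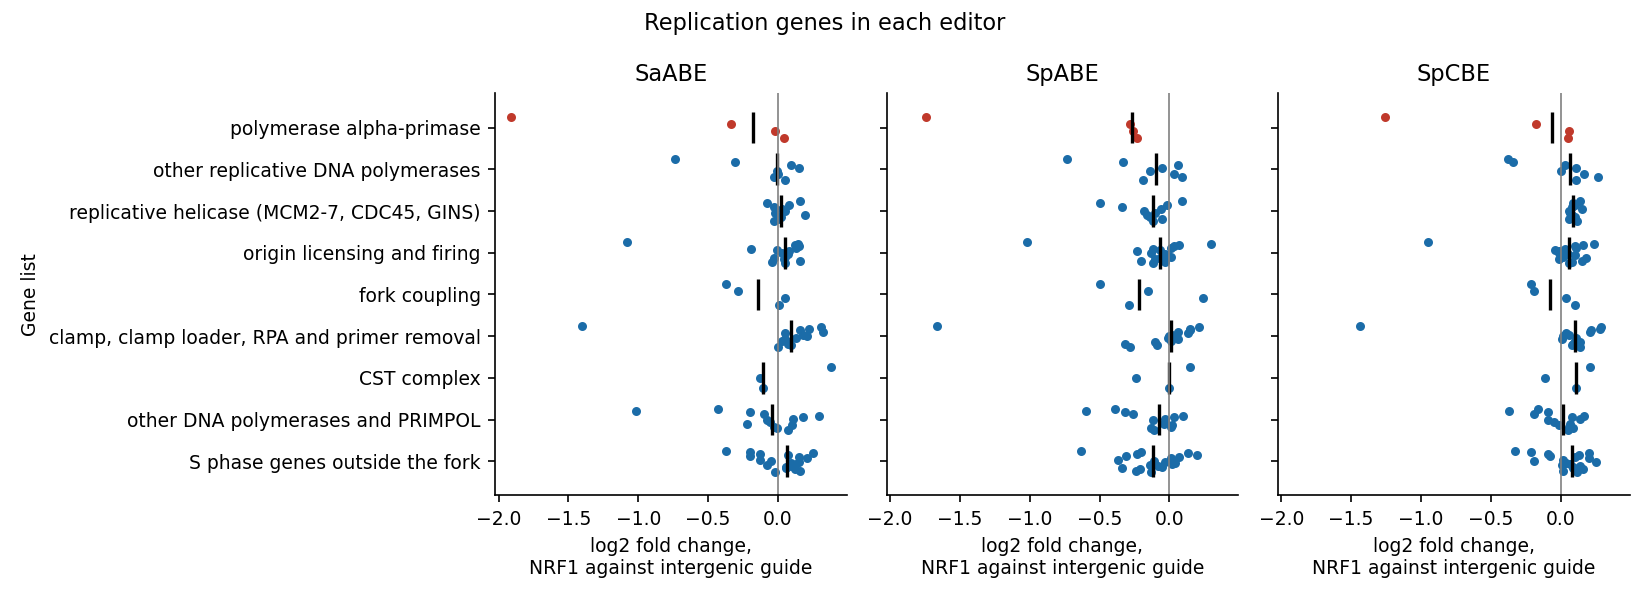
Log2 fold change of NRF1 against intergenic guide (horizontal axes) for each gene of the replication lists in SaABE, SpABE and SpCBE, with 1 point per gene, red for the 4 subunits, and black lines for list medians. In SpABE 42 of the 92 genes outside polymerase alpha-primase passed the test as lower, against 17 of 92 in SaABE and 13 of 92 in SpCBE.

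The falls of POLA1 and PRIM2 in SpABE stood beside small falls of many replication genes with that editor. In SpABE 42 of the 92 genes were lower and 8 higher, beside 17.3% and 15.4% of all genes tested, with a median of -0.07 beside 0.00. In SaABE 17 were lower and 32 higher, beside 15.5% and 16.9% of all genes, with a median of 0.05 beside 0.01. In SpCBE 13 were lower and 34 higher, beside 12% and 11% of all genes, with a median of 0.08 beside 0.01. The helicase genes had 7 of 11 lower in SpABE and 7 of 11 higher in SpCBE. Their medians were 0.02, -0.12 and 0.09 in SaABE, SpABE and SpCBE. MCM5, the lowest of the 11 in SpABE, was at -0.08, -0.50 and 0.09 in the same order. These counts per list were not tested between editors, and their part in the values of POLA1 and PRIM2 was not tested.

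The genes most like POLA2 were sought by Pearson's correlation of log2 CPM over the 18 libraries among 11381 genes with a mean of at least 5 CPM. The 5 highest were RWDD2B (r = 0.992), MAN1B1 (0.987), RTCB (0.986), TMEM19 (0.985) and CLTCL1 (0.984). They share with POLA2 the 6 groups and were picked for their likeness, so that being lower with each NRF1 guide and a like order of the editors follow from the choice. RWDD2B was at a mean of 23.0 CPM with intergenic and 12.2 CPM with NRF1 guides, and had log2 differences of -1.09, -0.91 and -0.78 in SaABE, SpABE and SpCBE. MAN1B1, an endoplasmic reticulum mannosidase gene, was at -0.71, -0.63 and -0.44, and RTCB, which encodes the ligase of tRNA splicing, at -0.45, -0.45 and -0.37. TMEM19 was at -1.13, -0.93 and -0.81 and CLTCL1, a clathrin heavy chain gene, at -1.01, -1.05 and -0.60. Among the partners of POLA2 the correlation was 0.764 for PRIM1, 0.532 for POLA1 and 0.363 for PRIM2.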

How the data were processed

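Polyadenylated RNA of 18 HEK293T libraries was sequenced. Per the labels and the study's methods, the authors prepared stranded mRNA libraries, trimmed reads with Cutadapt 1.18 and aligned them with STAR 2.7.0f to hg38 and GENCODE annotation. The authors deposited estimated counts for each gene without normalization, of which 19.63% of nonzero values were not whole. How reads were counted, whether by strand, and what was done with reads of more than 1 match is not given in the sources used, so overlapping genes are uncertain. Of 36 sample columns, 18 were used and 18 were not. DESeq2 1.46.0 is listed in the submitters' processing notes.

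Estimated counts were rounded to whole numbers and filtered with filterByExpr, which left 17743 genes, and scaled by TMM. Quasi-likelihood tests of edgeR 4.0.16 (R 4.3.3) were adjusted by Benjamini-Hochberg over these genes. A gene passed at an adjusted p under 0.05 and was called if its log2 difference also exceeded 0.5. The comparison over 3 editors had the editor as an additive term, and all others were contrasts of 6 group means over the 18 libraries, with a biological coefficient of variation of 3.1%. Intervals of 95% are 1.96 SE. A test had been planned for the differences of POLA2 between editors, which are given without one because they rest on the values that chose the gene. Alternatives were DESeq2 1.42.0, other scalings, filters, a replicate block, leaving out each library and summing overlapping genes.

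Levels are TMM-scaled CPM. Gene models came from GENCODE 44, which held 58472 of 58870 identifiers, and start sites and promoters from RefSeq on GRCh38.p14, matched for 4 of 4 genes. The study's methods name an earlier GENCODE version for the alignment. Exon lengths and shared bases may therefore differ from those behind the counts. On simulated data with 17362 genes, 100% of 25 genes changed 1.25-fold in all editors passed in the comparison over 3 editors. Of 25 genes changed as much in SaABE only, 72% passed in the difference between SaABE and SpABE. The simulation gave all genes the same spread and no other differences between editors. Changed genes had a mean of at least 5 CPM. These shares may therefore be too high for the subunits.

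The members, lists and rules were chosen with earlier results of these data known. By rule, the named genes were the members, NRF1 and up to 3 genes per list with the smallest p among those that passed. The rule also named neighbours with starts within 10 kb and the 5 genes most correlated with POLA2 at a mean of at least 5 CPM. CDC42EP2, NACA and the genes that overlap a member fall outside the rule unless they neighbour a member. Those outside it were named after their values were seen. The labels do not state whether replicates were separate cultures. The p-values therefore reflect only how the libraries varied, and that variation may be technical. All pairs of libraries within a group differed by more than sampling noise. In SpABE same-numbered libraries of the 2 guides deviated together, with correlations of 0.156, 0.111 and 0.125 over 8872 genes. That pairing was read from these correlations alone, was not tested and is not named by the labels. The main tests did not use it, and it entered only through the replicate block among the alternatives. In SaABE the correlations were -0.385, -0.344 and -0.0649, and in SpCBE 0.0305, 0.0381 and 0.101.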

Additional observations from a re-analysis of the deposited data

Results flagged for a closer look

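The effect of the NRF1 guide differed between editors, by the edgeR test of the difference, for 2 of the 3 partners of POLA2. For POLA1 the difference was 0.25 on the log2 scale for SaABE minus SpABE and -0.33 for SpABE minus SpCBE. For PRIM2 it was 0.27 and -0.28 in the same pairs, so for both subunits SpABE differed from the other editors. Among all genes tested, 6.37% had a higher change in SaABE than in SpABE and 4.42% a lower change in SpABE than in SpCBE. The trait was thus seen in genes outside the complex too. For the 92 other replication genes the differences of effect between editors were not counted. Within each editor, 42 of the 92 were lower in SpABE, 17 in SaABE and 13 in SpCBE, beside 17.3%, 15.5% and 12% of all genes.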

How the results depend on the processing

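Of 696 values of the 4 subunits under alternative settings, 679 kept their direction and side of the threshold (or, for the untested values of POLA2, moved by less than 1 SD), and of 174 counts of called genes 171 stayed within 1.5 times. The exceptions are given here, and the cause was not tested. POLA1 over the 3 editors passed at -0.101 with library totals only and at -0.073 with no low-count filter, and ranged from -0.088 to -0.057 when 1 library was left out, passing without replicate 2 of the NRF1 guide in SpCBE. POLA1 in the intergenic controls of SaABE and SpCBE passed at -0.148 with library totals only. PRIM1 in SpCBE ranged from -0.213 to -0.14 with 1 library left out and did not pass without replicate 2 of the NRF1 guide, and PRIM1 between the SpABE and SpCBE controls ranged from 0.083 to 0.139 and passed without replicate 1 of the SpABE intergenic guide. The PRIM2 effect of SaABE minus SpCBE, which was near 0 and did not pass, ranged from -0.043 to 0.02 and changed sign without replicate 2 of the SaABE NRF1 guide, replicate 3 of the SaABE intergenic guide or replicate 1 of the SpCBE NRF1 guide. Summing overlapping genes, chosen after seeing the data, moved POLA2 to -1.258 over the 3 editors, -1.414 in SaABE, -1.346 in SpABE and -1.042 in SpCBE, moved its differences between editors to -0.068 for SaABE minus SpABE, -0.372 for SaABE minus SpCBE and -0.304 for SpABE minus SpCBE, and made its difference between the SaABE and SpABE controls pass at -0.096.

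With no low-count filter, 420 genes were called for a difference in effect between SaABE and SpABE, beside 277 with the filter. Between SaABE and SpCBE the count was 219, beside 109. More genes were tested in that setting, but what raised the counts was not tested. With a filter of 1 CPM in at least 9 libraries, calls between the SpABE and SpCBE controls went from 1098 to 715. With library totals only, the share of calls that were lower went from 60.6% to 71.3% for the effect of SaABE minus SpCBE, from 52.7% to 70.1% for the controls of SaABE minus SpCBE and from 57% to 67.7% for those of SpABE minus SpCBE. The median of all genes moved by at most 0.1 under each scaling tried.

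With the replicate number as a block, no subunit changed side of the threshold and no count moved by over 1.5 times. Over the 3 editors PRIM1 was at -0.265 under the block, POLA2 at -1.617 and the count of called genes at 923, beside 976 without it. In SpABE same-numbered libraries of the 2 guides correlated best with each other, though weakly (0.111 to 0.156). There POLA1 was at -0.265 (edgeR adjusted p = 1.07e-05) and PRIM2 at -0.229 (edgeR adjusted p = 0.000469) under the block.

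Depth did not limit these values, since the subunits had 497 to 4449 estimated counts in each library. Gene-level counts cannot place reads among transcripts of POLA2 and its read-through neighbour, and they do not show editing or skipping. Leaving a group with 2 libraries assumes that they vary like the other groups.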
